A study of Homo sapiens with 12 samples.

Results

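AHR, its 2 dimerization partners ARNT and ARNT2, and 3 chaperone genes that hold it (PTGES3, HSP90AA1 and HSP90AB1) were examined in RNA-seq data of stable A549 cells. These 6 genes were taken by symbol from a count table of 60623 genes, and all 6 passed the filter on low counts in every comparison. A549 is a human lung adenocarcinoma (LUAD) cell line. The lines were derived by lentiviral infection and hygromycin selection, and they carried an empty vector with an EF1a promoter (V), the HA-tagged open reading frame of wild-type AHR (WT), or the same reading frame with S489A (SA) or S489D (SD). The endogenous AHR gene was kept in all 4 lines, and no AHR ligand is named in the labels. Each line has 3 libraries, named as biological replicates in the labels, which makes 12 libraries. Nothing in the labels says how far apart these replicates were grown, so p-values measure the spread between these libraries only. Since 1 line stands for each construct, what the construct did and how the lines differed otherwise cannot be told apart.

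AHR is a ligand-activated transcription factor of the basic helix-loop-helix PAS (bHLH-PAS) family. Without a ligand it is kept in the cytosol by an HSP90 dimer and the co-chaperone p23 (encoded by PTGES3), among other proteins. After ligand binding it enters the nucleus, pairs with ARNT or the related ARNT2, and binds xenobiotic response elements near genes such as CYP1A1 and CYP1B1. HSP90AA1 and HSP90AB1 encode the stress-inducible and the constitutive cytosolic HSP90, and ARNT also pairs with the hypoxia factor HIF1A.

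The mutated residue is read from the AHR coding sequence below, which shows the wild-type codon that the SA and SD constructs replaced. AHR (ENSG00000106546) lies on chromosome 7 of GRCh38 from 16916359 to 17346152 on the plus strand. Its GENCODE v44 canonical transcript has 11 exons and 848 codons, and the mutated codon, a serine codon, is in exon 10. The window covers chr7:17339278-17339304 on the plus strand, and the capitals mark this codon.
AHR, mutated codon with its flanks: tttttcaacgaaTCTatgaatgaatgc

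The 12 libraries held between 7844045 and 11765576 expected counts each, and no libraries of 1 line were copies of each other. Levels are given as counts-per-million values (CPM) on library sizes scaled by the trimmed mean of M-values (TMM). A count of 0 allows a level of up to 3 counts, which was 0.256 to 0.381 CPM and covers counting error only. Epithelial markers were present, with KRT8 between 2359 and 3330 CPM and CDH1, the E-cadherin gene, between 103 and 179 CPM. KRT19 (at most 0.536 CPM) and EPCAM (at most 1.75 CPM) were near 0, and of 4 lung lineage markers NAPSA alone passed 1 CPM, at 2.80 to 4.51 CPM. Of 11 markers of blood, endothelial and fibroblast cells, 9 stayed under 1 CPM in every library. The other two were CD68 (21.7 to 36.7 CPM) and COL1A1 (5.34 to 13.1 CPM). Markers moved with the lines: KRT8, KRT18 and CDH1 fell in all 3 AHR lines against V, COL1A1 fell in WT and SA (log2 fold change -0.79 and -0.60, edgeR adjusted p = 0.00649 and 0.0278), and CD68 rose in SA (0.36, adjusted p = 0.0320). Their part in the results was not tested.

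The first comparison asks how far AHR RNA stood above V in each AHR line. AHR was at 67.4, 65.8 and 74.3 CPM in the 3 V libraries. It was at 234, 285 and 281 CPM in WT, at 219, 220 and 230 CPM in SA, and at 202, 208 and 220 CPM in SD. All 9 libraries with an AHR construct were far above all 3 V libraries, the WT range lay above those of SA and SD, and SA and SD overlapped. Against V, the log2 fold change of AHR was 1.95 in WT (standard error 0.07), 1.69 in SA (0.06) and 1.61 in SD (0.06), which are 3.86-fold, 3.22-fold and 3.04-fold. These are values of the AHR row alone. With the second row that shares its coding exons, the sum was 6.78-fold (WT), 5.68-fold (SA) and 4.28-fold (SD) above V. The adjusted p-values of the AHR row were 1.69e-18, 9.41e-18 and 5.84e-16 (edgeR quasi-likelihood test with Benjamini-Hochberg adjustment over all genes tested, two-sided, used throughout with a threshold of 0.05). These 3 comparisons share the V libraries.

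From WT to SD the AHR row fell by 0.35 on the log2 scale (standard error 0.06, edgeR adjusted p = 0.00774), a change of -21.3%. This call was lost without WT replicate 2 (adjusted p = 0.0644), WT replicate 3 (0.0659) or SD replicate 2 (0.0586). Between SD and SA the difference was -0.09 (95% interval -0.20 to 0.03, adjusted p = 0.704), and between WT and SA it was 0.26 (0.13 to 0.38, adjusted p = 0.136). Without WT replicate 1, the WT library with the least AHR, the difference between WT and SA passed the threshold (log2 fold change 0.34, adjusted p = 0.0164). It passed as well when every gene with a count was tested (0.000891), with a replicate block (0.0351) and with DESeq2 (0.0134). DESeq2 adjusted over 1788 genes in this pair, and edgeR over 14942.

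**Figure D1:**
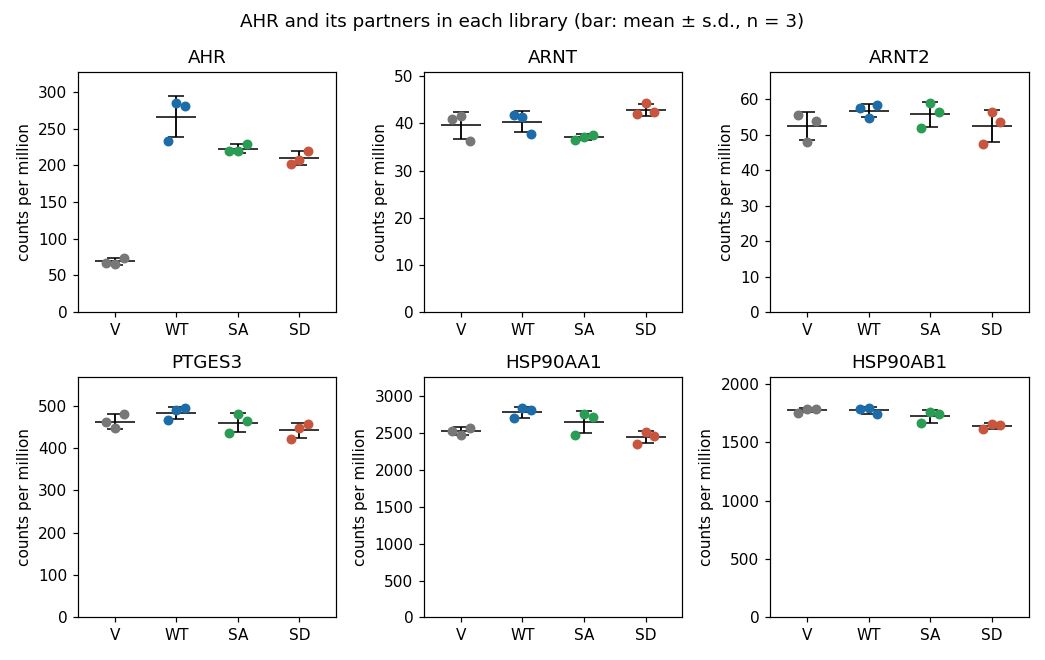
CPM of each gene (vertical axis, from 0) in the V, WT, SA and SD lines, with 1 point per library and a bar for the mean ± s.d. of 3 libraries. AHR stands between 202 and 285 CPM in the AHR lines against 65.8 to 74.3 in V, while the line means of the 5 partners differ by at most 15.6% for each gene.

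A second row of the count table takes reads of AHR. ENSG00000283321, on the same strand of chromosome 7 from 17299295 to 17467234, is annotated as 1 transcript of 12 exons, of which 10 lie on AHR exons. It covers 2373 of the 2544 coding bases of the AHR transcript (93.3%), the mutated codon included, and none of its 3699 other bases. Its other 1150 bases lie outside AHR. The constructs carry the AHR reading frame, and RSEM shares out reads that match more than 1 gene, so the split of reads between these rows is an estimate. The AHR counts were whole numbers in the 3 V libraries and not in the other 9.

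ENSG00000283321 had no count in any V library. It was at 217, 195 and 197 CPM in WT, at 152, 187 and 170 CPM in SA, and at 90.1, 96.9 and 69.6 CPM in SD. Against the limit of 3 counts in each V library, its mean was 645-fold higher in WT, 540-fold higher in SA and 272-fold higher in SD. That limit covers counting error only and not the division of reads between the rows. The folds are therefore not lower bounds of a change in RNA. The SD libraries were below all SA and WT libraries.

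The row took 48.1%, 40.7% and 41.2% of the sum of both rows in the WT libraries and 40.9%, 46.0% and 42.6% in SA. In SD it took 30.8%, 31.8% and 24.02%. The mean share was 43.3% ± 4.13 (WT), 43.2% ± 2.59 (SA) and 28.9% ± 4.24 (SD) (s.d., n = 3 each, where s.d. is the standard deviation). The share in SD minus that in WT was -14.4 percentage points and SD minus SA was -14.3, with libraries that did not overlap. An exact two-sided permutation test of 3 libraries against 3 gave p = 0.1 in both cases, the smallest p it allows (0.138 after adjustment over 18 tests of ratios and shares). Between WT and SA the share differed by 0.166 percentage points (exact permutation p = 0.9, adjusted 0.9).

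The sum of both rows separated SD from WT and from SA further than the AHR row did, while the difference between WT and SA was 0.26 on the log2 scale in both. The sum was at 450, 480 and 478 CPM in the WT libraries, 371, 407 and 400 in SA and 292, 305 and 290 in SD, and these ranges did not overlap. Fitted as 1 gene, the sum changed by -37.1% from WT to SD (95% interval -41.6% to -32.1%, edgeR adjusted p = 8.80e-08). From SA to SD it changed by -24.7% (-30.6% to -18.4%, adjusted p = 0.00110), where the AHR row alone had a value of -5.74% and did not pass. From SA to WT it rose by 19.5% (11.4% to 28.1%, adjusted p = 0.0331), a call that was lost without WT replicate 1, 2 or 3 (adjusted p = 0.0782, 0.177 and 0.152) and without SA replicate 2 or 3 (0.0639 and 0.0692).

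**Figure D2:**
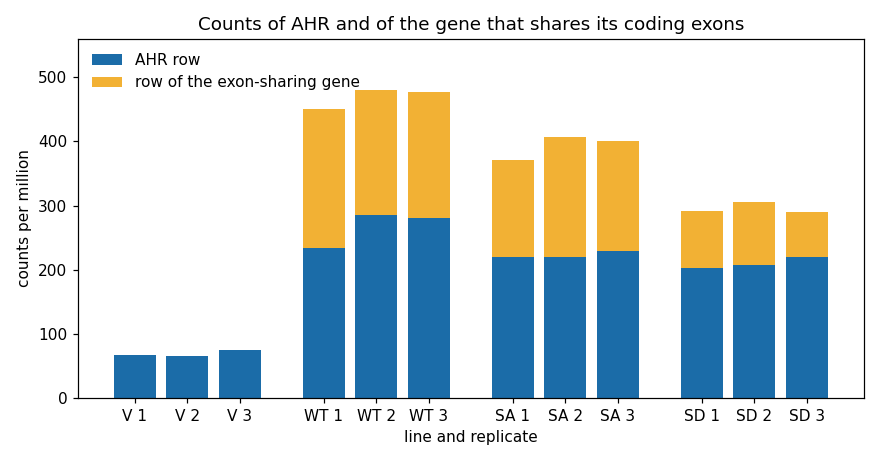
CPM (vertical axis) of the AHR row and, stacked on it, of ENSG00000283321, the gene that shares AHR coding exons, in each of the 12 libraries. The second row is empty in V, takes 40.7% to 48.1% of the stack in WT and SA, and takes 24.02% to 31.8% in SD.

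No difference of the dimerization partners of AHR passed the test. ARNT (ENSG00000143437, chromosome 1 from 150809713 to 150876708, minus strand) was at 40.9, 41.6 and 36.3 CPM in V and at 41.8, 41.4 and 37.9 CPM in WT. It was at 36.5, 37.1 and 37.6 CPM in SA and at 41.9, 44.3 and 42.4 CPM in SD. V and WT overlapped, while every SD library was above every SA library. Full separation of 3 libraries from 3 cannot give an exact permutation p below 0.1. How many of all genes separate in this way was not counted, here or for the partners below. ARNT passed the threshold in none of the 6 comparisons, and its log2 fold change of 0.21 between SD and SA (95% interval 0.05 to 0.37) had an unadjusted p of 0.0145 and an edgeR adjusted p of 0.443. Against V it differed by 0.03 in WT (-0.15 to 0.20), -0.10 in SA (-0.26 to 0.07) and 0.12 in SD (-0.06 to 0.29).

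ARNT2, the paralog that pairs with the same bHLH-PAS proteins and is best known from neural tissue, was also present. ARNT2 (ENSG00000172379, chromosome 15 from 80404350 to 80597933, plus strand) was at 55.4, 47.9 and 54.0 CPM in V and at 57.4, 54.6 and 58.2 CPM in WT. It was at 51.9, 58.8 and 56.3 CPM in SA and at 47.3, 56.3 and 53.5 CPM in SD. All 4 lines overlapped, and no comparison passed the threshold (edgeR adjusted p between 0.493 and 0.998). The intervals of its log2 fold changes against V were -0.04 to 0.27 in WT, -0.07 to 0.25 in SA and -0.17 to 0.17 in SD. The canonical ARNT and ARNT2 transcripts share none of their 50-base words, and the counts of both genes were whole in all 12 libraries.

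The ratio of the AHR sum to ARNT within a library, which needs no scaling between libraries, compares the lines and not the level of one gene with the other. On the log2 scale it was 0.72, 0.66 and 1.03 in V and 3.43, 3.53 and 3.66 in WT. It was 3.35, 3.45 and 3.41 in SA and 2.80, 2.78 and 2.77 in SD. V was lowest, SD lay between V and the other 2 AHR lines without overlap, and WT overlapped SA. The mean log2 ratio was 0.76 lower in SD than in WT and 0.62 lower in SD than in SA (exact permutation p = 0.1 each, the smallest possible, adjusted 0.138), and 0.14 higher in WT than in SA (p = 0.2, adjusted 0.24).

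The cytosolic HSP90 genes were abundant and moved little. HSP90AA1 (ENSG00000080824, chromosome 14 from 102080738 to 102139699, minus strand) was at 2526, 2476 and 2573 CPM in V and at 2698, 2831 and 2808 CPM in WT. It was at 2477, 2761 and 2709 CPM in SA and at 2350, 2511 and 2462 CPM in SD. All WT libraries were above all V and all SD libraries, and SA covered the range in between. HSP90AA1 rose in WT against V by a log2 fold change of 0.14 (95% interval 0.06 to 0.21, edgeR adjusted p = 0.0176), which is 9.99%. That call was lost with all 12 libraries in 1 fit (adjusted p = 0.102) and with a replicate block (0.0614). It was also lost without V replicate 1 (0.0721), V replicate 2 (0.0643), WT replicate 2 (0.0799) or WT replicate 3 (0.0706). Over all alternatives its adjusted p ranged from 0.00196 to 0.102.

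The difference of HSP90AA1 from WT to SD was -12.2% (95% interval -18.5% to -5.31%), with an unadjusted p of 0.00162 and an edgeR adjusted p of 0.111. The difference passed when every gene with a count was tested (0.0191), with all 12 libraries in 1 fit (0.0478), with a replicate block (0.00600) and with DESeq2 (0.000268). The adjusted p over all alternatives ranged from 0.000268 to 0.375. Against V, HSP90AA1 differed by 0.07 in SA (-0.02 to 0.16) and by -0.05 in SD (-0.15 to 0.06). Without SA replicate 1, its lowest SA library, the value in SA was 0.12 and passed (adjusted p = 0.0389).

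HSP90AB1 (ENSG00000096384, chromosome 6 from 44246166 to 44253888, plus strand) was at 1753, 1787 and 1786 CPM in V and at 1788, 1789 and 1742 CPM in WT. It was at 1661, 1758 and 1743 CPM in SA and at 1613, 1656 and 1646 CPM in SD. The SD libraries were the lowest, below all V, WT and SA libraries, and the share of all genes that separate in this way was not counted. HSP90AB1 passed the threshold in no comparison. From V to SD its value was -7.58% (-13.9% to -0.781%, edgeR adjusted p = 0.221) and passed there with DESeq2 only (adjusted p = 0.0329), which also called it in the test of the 4 lines (0.00881, edgeR 0.207). The interval of its difference from V to WT was -5.13% to 5.00%.

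PTGES3 (ENSG00000110958, chromosome 12 from 56663341 to 56688408, minus strand) was at 462, 446 and 480 CPM in V and at 467, 489.3 and 494 CPM in WT. It was at 437, 480 and 463 CPM in SA and at 421, 448 and 456 CPM in SD. The lines overlapped except SD and WT. The largest difference of this co-chaperone was between these lines, at -8.66% from WT to SD (-15.3% to -1.49%, unadjusted p = 0.0208, edgeR adjusted p = 0.345), and it passed in no comparison and under no alternative. The annotated pseudogenes of PTGES3, HSP90AA1 and HSP90AB1 together held at most 0.176%, 0.0615% and 0.0355% of the count of their parent gene.

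**Figure D3:**
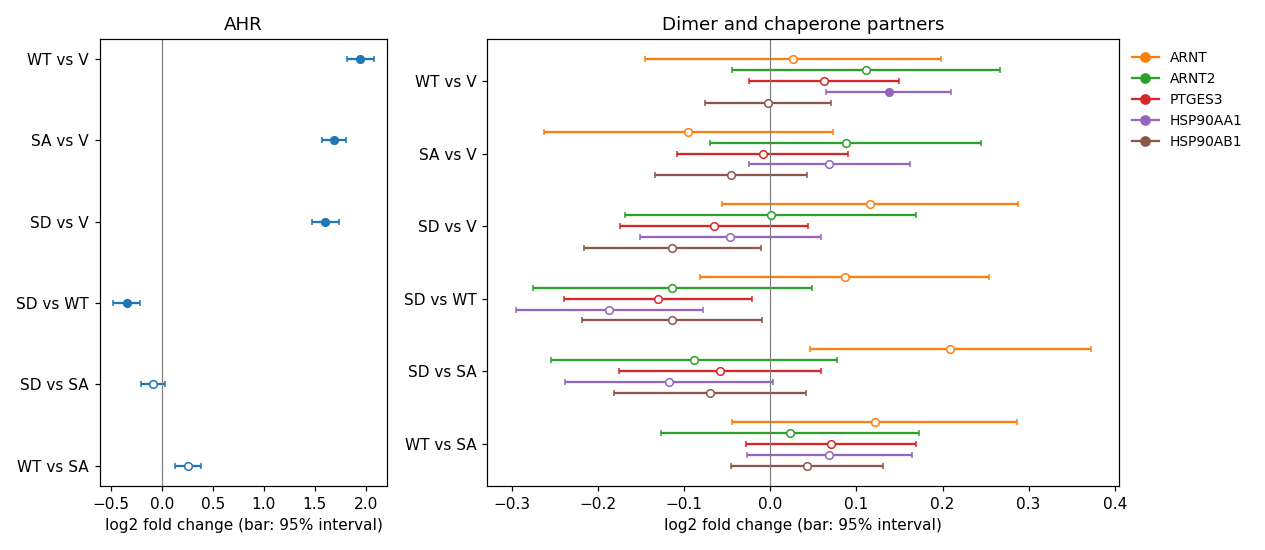
Log2 fold change of the first line over the second (horizontal axis, with 95% intervals) for AHR and for its 5 partners in the 6 comparisons. Filled points have an adjusted p under 0.05. AHR spans -0.35 to 1.95, while every partner lies between -0.19 and 0.21, and HSP90AA1 in WT against V is the only filled partner.

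Counted over the 6 genes, 2 rose in WT against V (AHR and HSP90AA1), where 5.24% of all 14772 genes tested passed and 2.31% rose. In SA against V and in SD against V, 1 gene rose (AHR), beside 7.17% and 5.41% of all genes that passed (3.88% and 2.92% rose, 3.29% and 2.49% fell). The constructs carry AHR, so its rise over V and its difference among the 4 lines were set by the design. They are not a result to weigh against these shares. Of the 5 partners, HSP90AA1 alone passed in WT against V, and none passed in SA or SD against V. In SD against WT, 1 gene fell (AHR), where 0.708% of genes passed and 0.196% fell. None of the 6 passed in SD against SA (edgeR, 0.220% of all genes) or in WT against SA (0.0803%). At an unadjusted p under 0.05, ARNT passed in SD against SA and AHR in WT against SA. For the former pair DESeq2 called none of the 6, where 1.7% of the 2300 genes it adjusted over passed. For the latter pair it called AHR, where 1.01% of 1788 genes passed. ARNT and ARNT2 had no DESeq2 adjusted p for either pair, so DESeq2 could not call them there. In 1 test of any difference among the 4 lines, 2 of the 6 passed (AHR and HSP90AA1, adjusted p = 3.85e-16 and 0.0413), beside 6.41% of all genes. The HSP90AA1 result was lost in 10 of 17 alternatives, with an adjusted p between 0.0511 and 0.121 in those: a minimum of 10 counts in every library and the fits without V replicate 1, 2 or 3, WT replicate 1, 2 or 3, SA replicate 2 or 3, or SD replicate 2. The 5 partners gave 30 values over the 6 comparisons, of which 6 had an unadjusted p under 0.05 and 1 an adjusted one. Over all genes, an unadjusted p under 0.05 was reached by 7.31% (WT against SA) to 20% (SA against V). The median size of the 30 values was 0.078 on the log2 scale, where the medians over all genes in the 6 comparisons ranged from 0.088 to 0.12.

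The balance of the HSP90 genes was measured within each library as the log2 ratio of HSP90AB1 to HSP90AA1. It was -0.53, -0.47 and -0.53 in V and -0.59, -0.66 and -0.69 in WT. It was -0.58, -0.65 and -0.64 in SA and -0.54, -0.60 and -0.58 in SD. All 9 AHR libraries lay below the V libraries, and WT, SA and SD overlapped each other. The mean ratio was lower than in V by 0.14 in WT, 0.11 in SA and 0.067 in SD (exact permutation p = 0.1 each, the smallest possible, adjusted 0.138). SD and WT differed by 0.073 (exact permutation p = 0.2, adjusted 0.24). The comparisons with V share the V libraries, and the canonical HSP90AA1 and HSP90AB1 transcripts share none of their 50-base words.

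**Figure D4:**
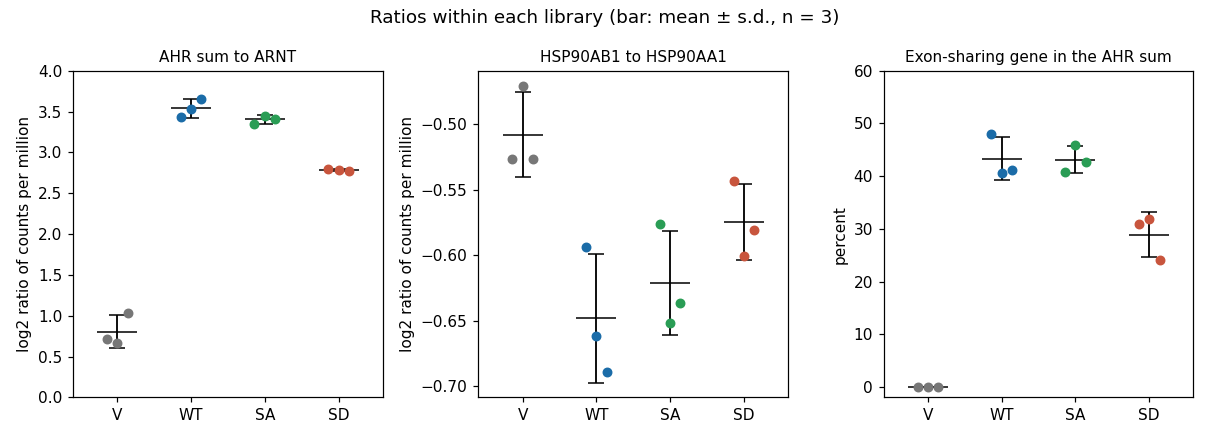
Ratios within each library, with 1 point per library and the mean ± s.d. of 3. The left and middle panels give log2 ratios of CPM, and the right panel gives the percent of the AHR sum that was assigned to ENSG00000283321. SD lies at 2.77 to 2.80 for AHR to ARNT, below WT and SA (3.35 to 3.66), and the HSP90 ratio of V (-0.53 to -0.47) is above that of every AHR library.

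Promoter sequences of the members (RefSeq, GRCh38.p14, 250 bases before to 50 after each start) were searched on both strands for the core of the xenobiotic response element, GCGTG, and for the heat shock element, read here as the units GAA, TTC and GAA in a row with 2 free bases between neighbours. Entries were found for 5 of the 6 genes, with 2 for HSP90AA1 and 3 for HSP90AB1, and ARNT2 had none. The heat shock element occurred in 1 HSP90AA1 promoter and at 2 sites of 1 HSP90AB1 promoter, and it is held by 0.490% of all 35116 promoters. It was not found in the windows of AHR, ARNT and PTGES3, or in the other windows of HSP90AA1 and HSP90AB1. Windows with the element were chr14:102086995-102087294 and chr6:44247693-44247992, which lie inside the annotated genes. Distances below are counted from the transcript start of that window and not from the annotated gene start. These sites are shown because only windows of the HSP90 genes held the element among the 5 genes searched. The matches are on the strand opposite to the gene, the capitals mark the match, and the sequence is printed on the strand of the gene.
HSP90AA1, 88 bases upstream of the start, chr14:102087112-102087140, minus strand: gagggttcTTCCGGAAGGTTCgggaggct
HSP90AB1, 165 bases upstream of the start, chr6:44247770-44247798, plus strand: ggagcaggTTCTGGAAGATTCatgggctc
HSP90AB1, 112 bases upstream of the start, chr6:44247823-44247851, plus strand: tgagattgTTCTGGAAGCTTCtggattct
The xenobiotic core is held by 36.5% of all promoters. It occurred once in the AHR window, on the strand of the gene and 37 bases after the start, and also in windows of PTGES3, HSP90AA1 and HSP90AB1 but not of ARNT.
AHR, core in capitals, chr7:17298681-17298701, plus strand: ttccgagaGCGTGccccggac

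To compare levels between genes, the mean CPM of the V line was divided by the length of the canonical transcript. HSP90AA1 was highest, at 782 ± 14.98 CPM per kilobase (s.d., n = 3), followed by HSP90AB1 at 695 ± 7.48 and PTGES3 at 244 ± 8.87. AHR was at 11.1 ± 0.723, ARNT at 8.41 ± 0.613 and ARNT2 at 8.04 ± 0.616 CPM per kilobase. The chaperone genes stood above AHR, AHR was above both ARNT genes, and ARNT and ARNT2 did not differ beyond their spread. In the AHR lines the order of the 5 partners per kilobase was the same for the HSP90 genes and PTGES3, while ARNT was above ARNT2 in SD (9.10 ± 0.264 against 8.03 ± 0.702) and below it in WT (8.57 ± 0.462 against 8.70 ± 0.293) and SA (7.87 ± 0.123 against 8.53 ± 0.537). Only in SA and SD was the gap of the means larger than the larger s.d.. The AHR constructs lack the untranslated bases of the endogenous transcript, so no value per kilobase is given for AHR in those lines.

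The genes whose values across the 12 libraries were most like each member were found by Pearson's r of log2(CPM + 1) over 13865 genes. All libraries and their scaling are shared by these values, so they are a description. AHR was closest to NT5E, which encodes the ectoenzyme CD73 (r = 0.988), SERPINE2, a serine protease inhibitor (0.953), and NETO2 (0.951). HSP90AA1 was closest to AP2B1, a clathrin adaptor subunit (0.977), HSPD1, the mitochondrial chaperonin (0.951), and the tubulin gene TUBA1B (0.941). HSP90AB1 was closest to TPMT (0.914), GART (0.911) and the replication helicase gene MCM4 (0.906). PTGES3 was closest to ARPC3 of the actin-nucleating complex (0.927), ZNF106 (0.926) and MYL12B (0.921). ARNT was closest to DLEU2 (0.861), FAM156B (0.849) and NUDT4B (0.839), and ARNT2 to HNRNPA1L2 (0.897), XRCC5 (0.889) and BSCL2 (0.881). FAM156B, NUDT4B and HNRNPA1L2 have near-identical copies, and their counts are uncertain. Among the members themselves, PTGES3 and HSP90AA1 were most alike (r = 0.888), and AHR and ARNT had an r of 0.0231.

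The rest of the HSP90 machinery was described by a list of 24 genes, all of them tested. The list holds co-chaperones, related chaperones and heat shock factors, and also SRC, which is none of these. HSP90B1, the HSP90 of the endoplasmic reticulum, fell in WT and in SA, and no other gene of the list passed in a pair of lines. HSP90B1 averaged 1579 ± 47.2 (V), 1242 ± 61.4 (WT), 1245 ± 57.9 (SA) and 1430 ± 137 (SD) CPM (s.d., n = 3 each). It fell by 0.35 on the log2 scale in WT (edgeR adjusted p = 6.75e-07) and by 0.34 in SA (8.47e-06), and its value in SD was -0.14 (adjusted p = 0.199). The list thus had 1 of 24 genes (4.17%) in WT against V and in SA against V, below the 5.24% and 7.17% over all genes, and none in the other pairs with edgeR. Alternatives called genes there: HSP90B1 or HSPA8 in SD against WT (1 to 2 genes in 4 settings), SRC or HSP90B1 in SD against V (1 gene in 2 settings), HSP90B1 in SD against SA (1 setting) and HSPA8 in WT against SA (1 setting). The median log2 fold change of the list was 0.039 in WT against V, with a median of 0.0018 over all genes. In SD against WT it was -0.073 (all genes -0.00080), with 21 of 24 genes below 0. It was -0.070 in SD against SA (all genes 0.00066, 19 of 24 below 0) and -0.048 in SD against V (0.0030, 15 of 24). These genes share the same libraries, so their counts are not independent. HSPA8, the constitutive HSP70 (1146 ± 41.2 CPM in V), SRC (360 ± 5.56) and FKBP4 (274 ± 7.70) had adjusted p-values of 0.0643, 0.0833 and 0.218 in the test of the 4 lines.

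Other bHLH-PAS proteins were described by a list of 16 genes, of which 12 were tested, in 13 rows because AHRR has 2. In WT against V, 4 rows passed, with NPAS2 and ARNTL2 higher and NCOA3 and SIM2 lower, which is 30.8% of 13 rows beside 5.24% of all genes. In SA against V, 3 passed (NPAS2, ARNTL2 and NCOA3, 23.1% beside 7.17%), and in SD against V only NCOA3 did (7.69% beside 5.41%). Without WT replicate 2 the first count was 2, and without SA replicate 2 the second was 1. NCOA3, a nuclear receptor coactivator, averaged 271 ± 9.79 (V), 233 ± 4.54 (WT), 225 ± 3.12 (SA) and 210 ± 5.36 (SD) CPM, and it fell by 0.22, 0.27 and 0.36 on the log2 scale (edgeR adjusted p = 0.00264, 0.000578 and 5.85e-05). NPAS2, a circadian partner of BMAL1, averaged 140 ± 5.74 (V), 164 ± 10.5 (WT), 163 ± 8.47 (SA) and 137 ± 2.93 (SD) CPM. NPAS2 rose in WT and SA (0.23 and 0.21, adjusted p = 0.00881 and 0.0156) and was lower in SD than in WT (-0.27, adjusted p = 0.0271). The WT call of NPAS2 was lost without V replicate 2 (0.0551), WT replicate 2 (0.0523) or WT replicate 3 (0.0736), and the SA call without V replicate 2 (0.0888) or SA replicate 2 (0.130). The call of SD against WT was lost without WT replicate 2 (0.132), WT replicate 3 (0.185), SD replicate 1 (0.0503) or SD replicate 2 (0.154).

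ARNTL2, which encodes BMAL2, averaged 35.2 ± 0.165 (V), 44.9 ± 1.43 (WT), 45.8 ± 5.09 (SA) and 39.2 ± 3.94 (SD) CPM (n = 3 each). It rose in WT by 0.35 and in SA by 0.38 on the log2 scale (edgeR adjusted p = 0.00633 and 0.00490), the latter lost without SA replicate 2 (0.0585). HIF1A, the hypoxia factor that shares ARNT with AHR, averaged 661 ± 40.1 (V), 623 ± 28.5 (WT), 641 ± 28.5 (SA) and 726 ± 9.62 (SD) CPM. HIF1A was higher in SD than in WT by 0.22 on the log2 scale, with an adjusted p of 0.0477. That call was lost with DESeq2's size factors (0.0519) and without WT replicate 1, 2 or 3 (0.283, 0.0941 and 0.174) or SD replicate 2 or 3 (0.244 and 0.0534). SIM2, named here after its values were seen, had a log2 fold change of -0.35 in WT against V (adjusted p = 0.0255) and lost the call in 4 of 6 fits that left out a library (up to 0.175). No row of the list passed in SD against SA or in WT against SA. In SD against SA, NPAS2 passed when every gene with a count was tested, and NPAS2 and HIF1A passed with DESeq2. The list medians were 0.0079, 0.0032 and 0.029 on the log2 scale in WT, SA and SD against V, and its genes moved in both directions.

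A list of 22 nuclear transport, coregulator and turnover genes had 1 call in all, in WT against V (4.55%, near the 5.24% of all genes). CUL4B, the scaffold of a ubiquitin ligase that AHR can join, averaged 126 ± 9.63 (V), 148 ± 4.09 (WT), 141 ± 7.66 (SA) and 143 ± 3.16 (SD) CPM (n = 3 each). It rose in WT by 0.23 on the log2 scale (edgeR adjusted p = 0.0112). The call was lost with a replicate block (0.0508) and without V replicate 1 (0.105), V replicate 2 (0.0661) or WT replicate 2 (0.0513). KLF6, KPNA2 and SMARCA4 followed in the test of the 4 lines, with adjusted p-values of 0.134, 0.182 and 0.313. The list median in WT against V was 0.031.

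**Figure D5:**
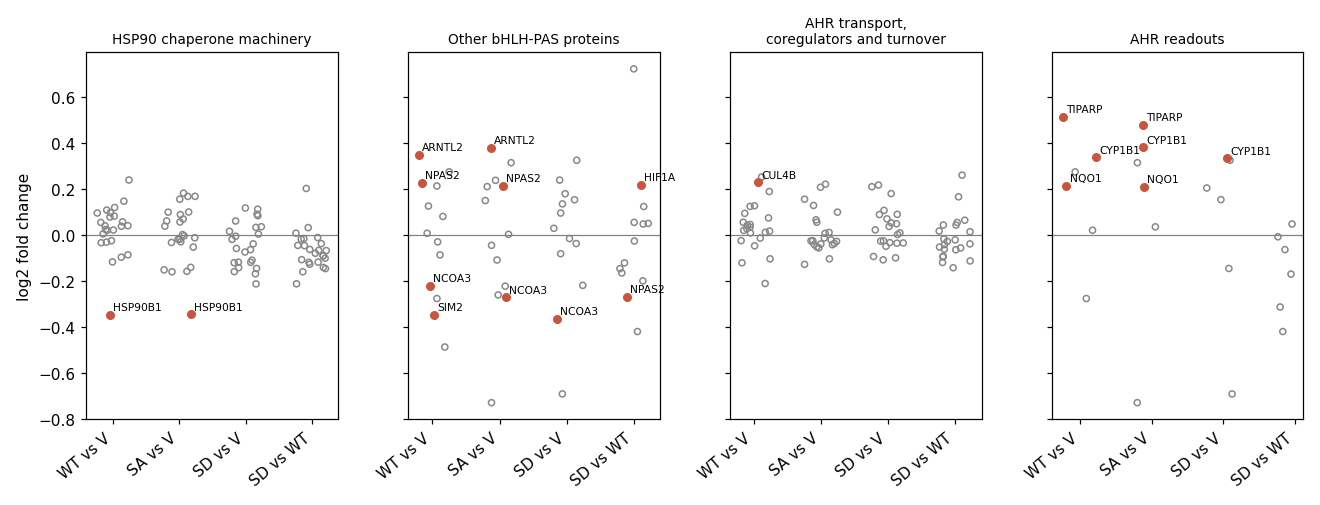
Log2 fold change (vertical axis) of each tested gene of 4 lists in 4 comparisons, with filled and named points for an adjusted p under 0.05. HSP90B1 is the only filled gene of the HSP90 machinery, and the bHLH-PAS genes have filled points on both sides of 0.

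Of 6 genes listed as AHR readouts, 5 were tested, in 6 rows because AHRR has 2. CYP1B1, NQO1 and TIPARP passed in comparisons with V, where they rose by 0.21 to 0.51 on the log2 scale. The list had 3 calls (50% of 6 rows) in WT and in SA against V, beside 5.24% and 7.17% of all genes. In SD against V it had 1 call (16.7% beside 5.41%). ALDH3A1 passed in the test of the 4 lines, with its lowest mean in SD. Whether AHR activity moved these genes was not tested. CYP1B1 averaged 62.4 ± 4.29 (V), 78.8 ± 5.45 (WT), 81.4 ± 1.90 (SA) and 78.6 ± 1.97 (SD) CPM, and it rose in all 3 AHR lines by 0.34, 0.38 and 0.34 on the log2 scale (edgeR adjusted p = 0.00275, 0.000475 and 0.00333). NQO1 rose in WT and SA by 0.21 each (adjusted p = 0.000511 and 0.00230), and its value in SD was 0.15 (0.0941). TIPARP rose in WT and SA by 0.51 and 0.48 (adjusted p = 0.00755 and 0.00950), and both calls were lost without V replicate 1 (0.103 and 0.113) and without WT replicate 3 (0.0860) or SA replicate 3 (0.0787). In SD TIPARP averaged 25.3 ± 0.269 CPM, with 22.0 ± 4.49 in V, and did not pass against V. CYP1A1 was at most 0.980 CPM in any library and was not tested. ALDH3A1 averaged 825 ± 24.4 (V), 838 ± 17.6 (WT), 846 ± 44.6 (SA) and 745 ± 23.8 (SD) CPM and passed in the test of the 4 lines (edgeR adjusted p = 0.0393). Its log2 fold change in SD was -0.15 against V, -0.17 against WT and -0.18 against SA (adjusted p = 0.106, 0.157 and 0.294), and it passed in all 3 with DESeq2. AHRR has 2 rows whose reads cannot be told apart here, at 19.1 ± 1.21 and 3.16 ± 0.433 CPM in V. Against V the larger row had log2 fold changes of 0.28, 0.32 and 0.33 in WT, SA and SD (edgeR adjusted p = 0.207, 0.0741 and 0.0839). The smaller row had -0.28, -0.73 and -0.69 (0.746, 0.284 and 0.301), so neither passed. Over the alternatives, the list had 2 to 4 calls in SA against V. CYP1B1, NQO1 and TIPARP passed in none of SD against WT, SD against SA and WT against SA. The median log2 fold change of the 6 rows was -0.12 in SD against WT, with 5 rows below 0. It was -0.054 in SD against SA (4 rows below 0) and -0.0062 in WT against SA (3 rows below 0). Whether the readouts followed the AHR sum was not tested.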

How the data were processed

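RNA-seq libraries (poly-A enriched) were made from 12 samples of 4 A549 lines, grouped by the genotype in their labels. Per the labels and methods, the authors trimmed reads with Trimmomatic 0.39, quantified them with RSEM on GRCh38 and deposited expected counts per gene without normalization; the annotation release is not given in the sources used here. A second deposited table holds only the authors' own log2 fold changes with p- and q-values and was not used. Between 3.24% and 3.61% of the counts of a library were not whole.

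Expected counts were rounded and analysed with edgeR 4.0.16 in R 4.3.3. Pairs of lines were fitted separately, 6 libraries at a time, with filterByExpr (minimum count 10, total 15), TMM and the quasi-likelihood test, and a 4-line F test used all 12. P-values were adjusted over all genes tested. CPM use TMM library sizes. Ratios were tested with exact permutation (scipy 1.17.1). Deposited coordinates were compared with GENCODE v44, where 88.7% of 60295 shared genes had the same start and end. The alternatives were DESeq2 1.42.0, its size factors, other filters, all 12 libraries in 1 fit, a replicate block, summed rows and each library left out. The pair test was tried on counts simulated for SD against WT, with the same spread setting for every gene. That trial does not measure how reliable calls of small differences are in these data. The members and lists were chosen with earlier results of these data known. Named genes are the members, the gene sharing AHR exons, the 3 genes most like each member, the 4 genes of each list with the smallest adjusted p among the lines, and all readouts.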

Additional observations from a re-analysis of the deposited data

How the results depend on the processing

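The rise of AHR over V passed under all 13 alternatives in WT, SA and SD, and the sum of AHR and ENSG00000283321 passed under all 12 of its alternatives in the 3 comparisons with V and in SD against both WT and SA. In WT against SA the sum kept its direction and ranged from 0.22 to 0.29 when 1 library was left out. The number of the 6 genes called moved as follows. In WT against V it was 2, and 1 with all 12 libraries in 1 fit or with a replicate block, and 1 to 2 when a library was left out. In SA against V it was 1 to 2 without 1 library, and in SD against V it was 2 with DESeq2. In SD against WT it was 2 when every gene was tested, with all 12 libraries, with a replicate block or with DESeq2, and 0 to 1 without 1 library. In SD against SA it was 1 with a replicate block (HSP90AA1) and 1 with summed rows (AHR). In WT against SA it was 1 when every gene was tested, with a replicate block, with DESeq2 and with summed rows (AHR in each case), and 0 to 1 without 1 library. Among the 4 lines it was 1 with at least 10 counts in every library, 3 with DESeq2 (HSP90AB1 added) and 1 to 2 without 1 library. With the replicate block, list genes were added in SD against WT (HSP90B1, HSPA8 and ALDH3A1) and in SD against SA (HSP90B1, NPAS2, HIF1A and ALDH3A1). The cause was not tested.

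Values near 0 changed sign. HSP90AB1 in WT against V was 0.0015 when every gene was tested and -0.012 to 0.010 without 1 library. PTGES3 in SA against V was 0.00085 when every gene was tested and -0.038 to 0.030 without 1 library. ARNT2 in SD against V was -0.0024 with DESeq2's size factors, -0.0015 with all 12 libraries, -0.00065 with a replicate block, -0.0012 with DESeq2 and -0.060 to 0.067 without 1 library. Without 1 library, ARNT in WT against V was -0.034 to 0.070, ARNT2 in WT against SA was -0.024 to 0.065, and the share of ENSG00000283321 in WT minus SA was -2.21 to 1.58 percentage points, an alternative chosen after seeing the data.

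Counts over all genes moved by more than 1.5 times in some settings. SD against WT had 105 genes, 252 when every gene was tested and 245 with the replicate block. SD against SA had 33, 153 and 165, and WT against SA had 12, 103 and 25, with 5 in the fit of all 12 libraries. WT against V had 774 and 507 with the block, and DESeq2, on the genes it tested, called 704 in SA against V (edgeR 1069) and 499 in SD against V (edgeR 806). Without 1 library the counts were 434 to 720 in WT against V, 621 to 1195 in SA against V, 502 to 856 in SD against V, 45 to 145 in SD against WT, 11 to 56 in SD against SA, 2 to 25 in WT against SA and 572 to 1072 among the 4 lines. Deviations of same-numbered libraries from their line means had correlations of -0.0596 to 0.103 (median 0.0349), and 1 of 18 pairs was above 0.1. Those of libraries with different numbers were -0.106 to 0.0834 (36 pairs, median -0.00963). The same-numbered correlations were thus weak but had the higher median. Whether the replicate numbers pair the libraries was not tested. With 3 libraries a line, edgeR did not call ARNT at 15.6% in SD against SA (adjusted p = 0.443) or HSP90AA1 at -12.2% in SD against WT (0.111). It called HSP90AA1 at 9.99% in WT against V (0.0176). A missing call therefore does not exclude a change of this size in a single gene.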

Other observations

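The epithelial markers used to check the cell type differed between the lines. KRT8, KRT18 and CDH1, which encode a keratin pair of simple epithelia and E-cadherin, fell in each AHR line against V. KRT8 fell by 0.33, 0.35 and 0.42 on the log2 scale in WT, SA and SD (edgeR adjusted p = 1.21e-07, 2.02e-06 and 3.04e-06). KRT18 fell by 0.37, 0.40 and 0.48 (3.25e-08, 3.72e-07 and 4.16e-07), and CDH1 fell by 0.60, 0.60 and 0.43 (7.74e-09, 1.18e-07 and 3.84e-05). KRT7 was lower in SD than in V (-0.24, adjusted p = 0.00414) and lower in SD than in WT (-0.23, adjusted p = 0.0309). These comparisons share the V libraries.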
